A study of Homo sapiens with 6 samples.

Results

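The genes described here are DANCR and 9 other long non-coding RNA genes that carry small nucleolar RNAs (snoRNAs) in their introns, GAS5, SNHG1, SNHG5, SNHG6, SNHG8, SNHG12, SNHG15, SNHG16 and ZFAS1. The members were chosen by name, with the higher DANCR level in these same libraries already known, to see whether the difference in DANCR is shared by other host genes. All 10 of the 10 members listed have a row among the 29889 genes of both the count and the FPKM table, and all 10 passed the filter on low counts. The study raised CELF6, an RNA-binding protein of the CELF family that acts on splicing and on RNA stability, in A549, an established line of human lung adenocarcinoma cells. In the CELF6-OE group the cells were transfected with CELF6 in the pIRES-hrGFP-1a plasmid by a lipid reagent, and in the Control group with the empty plasmid by the same reagent. Cells of both groups were harvested 48 h later, with 3 biological replicates in each group, so the groups shared the transfection and the plasmid backbone. The methods name no step that sorted or selected the transfected cells, so a library may hold cells without plasmid. Where nothing says that replicates were separate cultures, p-values measure only the spread between these libraries.

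A snoRNA host gene is transcribed and spliced like a messenger RNA, and the snoRNA is trimmed out of the excised intron. The snoRNA then joins a core of proteins and guides a chemical modification of ribosomal or spliceosomal RNA, ribose methylation for the C/D box class and pseudouridylation for the H/ACA box class. The spliced exons of many host genes hold no conserved reading frame, and several are known to be degraded when ribosomes translate them, by nonsense-mediated decay. Many hosts also start with an unbroken run of pyrimidines, the terminal oligopyrimidine (TOP) start that they share with ribosomal protein genes. DANCR, named for its part in holding back differentiation, is known as a largely cytoplasmic RNA that is raised in many tumours, and GAS5, ZFAS1 and several SNHG genes are likewise followed in cancer studies as RNAs in their own right.

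The start of each member is shown because TOP starts are the feature these genes are best known to share. The windows come from RefSeq on GRCh38.p14, hold the 10 bases before the annotated start and the first 20 bases of the transcript, and are written on the strand of the gene. Capitals mark the run of C and T that passes through the start base, where there is one.
DANCR: tgcgcgccccgcccttgcccagagtcttcc
GAS5: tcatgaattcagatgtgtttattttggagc
SNHG1: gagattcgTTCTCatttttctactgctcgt
SNHG5: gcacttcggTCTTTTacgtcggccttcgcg
SNHG8: ctcggCCTTTCacattcgggaagcgtcggg
SNHG12: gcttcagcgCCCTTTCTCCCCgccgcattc
SNHG16: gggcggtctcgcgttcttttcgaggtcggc
ZFAS1: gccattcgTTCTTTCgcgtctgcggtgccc
The windows lie at chr4:52712384-52712413 (+) for DANCR, chr1:173869026-173869055 (-) for GAS5, chr11:62855866-62855895 (-) for SNHG1, chr6:85678714-85678743 (-) for SNHG5, chr4:118278752-118278781 (+) for SNHG8, chr1:28581854-28581883 (-) for SNHG12, chr17:76557754-76557783 (+) for SNHG16 and chr20:49278632-49278661 (+) for ZFAS1. Of the 10 members, 8 were matched to a RefSeq entry, and SNHG6 and SNHG15 were not. A run of 5 or more C and T through the start base was present in 5 of these 8 members, and in 9.60% of all 35116 RefSeq entries. The run was 12 bases long in SNHG12 and 7 in ZFAS1. It was 6 in SNHG5 and SNHG8, 5 in SNHG1, and 0 in DANCR, GAS5 and SNHG16, whose annotated start base is a purine. The RefSeq start of GAS5, at position 173869045, lies outside the GENCODE v44 gene, and annotated starts may miss the base that A549 cells use, so a run of 0 says only that these letters are not at this base.

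The epithelial character of the cells and the transfection were checked first. CELF6 had 270.09, 294.94 and 172.27 FPKM, the fragments of a gene relative to its length and to the sequencing depth, in CELF6-OE replicates 1 to 3, and 0 counts in all 3 Control libraries. All 7 of 7 epithelial markers reached 1 FPKM in at least 1 library. Their summed levels, mostly KRT8, KRT18 and AKR1B10, were 4993 to 6130 FPKM in the CELF6-OE libraries and 6682 to 6828 FPKM in the Controls. EPCAM was under 1 FPKM in CELF6-OE replicate 2 (0.82) and Control replicate 3 (0.91). CDH1 had 2.98, 2.80 and 4.95 FPKM in CELF6-OE and 10.63, 11.22 and 10.49 FPKM in Control. KRT8, KRT18 and KRT19 were also lower in CELF6-OE, and the groups overlapped in EPCAM, AKR1B10 and AKR1C1. Of the 4 leukocyte markers only CD14 reached 1 FPKM (summed level 3.29 to 4.53 in CELF6-OE against 3.02 to 3.66 in Control), CD3E had no row, and PTPRC was at or near 0. None of the 4 fibroblast markers reached 1 FPKM, and neither did the endothelial markers PECAM1 and CDH5, while VWF had no FPKM value. Total counts on genes lay between 33748328 and 35413404 for CELF6-OE and between 36422617 and 37920700 for Control, and mitochondrial genes took 8.69% to 10.1% of them.

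DANCR (ENSG00000226950.6) is a gene of the forward strand at chr4:52712325-52723623 and is the host of the H/ACA snoRNA SNORA26 and of the microRNA MIR4449. It had 22.13, 21.31 and 16.47 FPKM in CELF6-OE and 6.22, 7.42 and 7.44 FPKM in Control. Every CELF6-OE library was above every Control library, and CELF6-OE replicate 3, which also had the lowest CELF6 level, was the lowest of its group. Replicates 1 and 2 went the other way, with CELF6 at 270.09 and 294.94 FPKM and DANCR at 22.13 and 21.31 FPKM. A relation between the levels of CELF6 and DANCR was not tested. The means were 19.97 ± 3.06 and 7.03 ± 0.70 FPKM (SD, n = 3 each). In counts, the libraries held 1664, 1636 and 1205 DANCR fragments in CELF6-OE and 488, 606 and 608 in Control. With library sizes scaled by TMM, the log2 fold change was 1.47 with a standard error (SE) of 0.12 and a 95% interval of 1.20 to 1.75, a 2.78-fold higher level. It stood at rank 14 of the 15847 genes tested by log2 fold change. This contrast was the reason DANCR leads the group, so its value is a description and carries no test. A bulk library cannot tell a higher level per cell from more cells that carry the transcript.

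The members with the highest Control means, SNHG5, ZFAS1, SNHG6 and GAS5, are hosts of C/D box snoRNAs and differed in both directions by small amounts. The H/ACA host SNHG8 was level with GAS5 in Control, where their ranges overlapped. In CELF6-OE its mean was above that of GAS5 (99.5 against 85.4 FPKM). SNHG5 (chr6:85650491-85678932, reverse strand), the host of the SNORD50 snoRNAs, had 208.47, 198.86 and 195.21 FPKM in CELF6-OE and 164.64, 165.30 and 161.54 FPKM in Control. Its groups did not overlap and its log2 fold change was 0.26 (SE 0.060), a level 20.1% higher in CELF6-OE. ZFAS1 (chr20:49278178-49299600, forward strand), the host of the SNORD12 snoRNAs, had 110.34, 107.68 and 109.15 FPKM in CELF6-OE and 124.44, 127.35 and 131.89 FPKM in Control. Here every CELF6-OE library was below every Control library, with a log2 fold change of -0.26 (SE 0.063), so that the abundant hosts SNHG5 and ZFAS1 lay apart in opposite directions.

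GAS5 (chr1:173858559-173868882, reverse strand), a multi-snoRNA host named for its accumulation in growth-arrested cells, had 83.10, 84.93 and 88.16 FPKM in CELF6-OE and 89.61, 93.42 and 95.14 FPKM in Control. Its groups did not overlap either, with CELF6-OE below Control by a log2 fold change of -0.15 (SE 0.064). SNHG6 (chr8:66920561-66926398, reverse strand), the host of SNORD87, lay in the same direction. It had 100.07, 101.28 and 103.61 FPKM in CELF6-OE and 116.36, 115.73 and 105.81 FPKM in Control, a log2 fold change of -0.18 (SE 0.059), and its highest CELF6-OE library came close to its lowest Control library.

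SNHG1 (chr11:62851978-62855953, reverse strand), which carries SNORD22 and a run of further C/D box snoRNAs, had 64.33, 71.83 and 63.17 FPKM in CELF6-OE and 52.16, 53.70 and 60.67 FPKM in Control. SNHG16 (chr17:76557727-76670985, forward strand), the host of the SNORD1 snoRNAs, had 68.07, 68.72 and 64.36 FPKM in CELF6-OE and 61.00, 60.13 and 61.57 FPKM in Control. In both genes the FPKM values of the groups did not overlap, but the TMM-scaled counts (CPM, counts brought to a common library size) did. Their log2 fold changes were 0.23 (SE 0.083) for SNHG1 and 0.11 (SE 0.060) for SNHG16.

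The other hosts carry H/ACA box snoRNAs, alone or beside a C/D box snoRNA. SNHG8 (chr4:118278703-118285316, forward strand), on the same chromosome as DANCR, is the host of SNORA24. It had 104.34, 96.37 and 97.81 FPKM in CELF6-OE and 89.40, 85.47 and 93.90 FPKM in Control, with a log2 fold change of 0.12 (SE 0.071), and its groups overlapped in CPM but not in FPKM. SNHG12 (chr1:28578538-28583132, reverse strand), which carries SNORA61, SNORA44, SNORA16A and SNORD99, had 10.68, 12.30 and 10.98 FPKM in CELF6-OE and 9.75, 9.87 and 11.21 FPKM in Control. SNHG15 (chr7:44983019-44986961, reverse strand) had 9.11, 9.08 and 9.50 FPKM in CELF6-OE and 8.09, 9.77 and 10.34 FPKM in Control. The groups of both genes overlapped on both scales, with log2 fold changes of 0.11 (SE 0.097) and -0.060 (SE 0.10). Of all members, only SNHG15 changed sign over the 17 alternatives, to 0.034 when Control replicate 3 was left out.

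Set side by side, the size of the DANCR difference had no counterpart among the other members. The log2 fold changes of the 9 others ran from -0.26 to 0.26 with a median of 0.11, against a median of 0.011 and an interquartile range of -0.19 to 0.18 over all genes tested. The highest upper bound of a 95% interval among the 9 was 0.41, for SNHG1, and the lower bound of DANCR was 1.20. DANCR was chosen for its height in this contrast, so these bounds are a description and no test. A DEG here needed both a p under 0.01 and a level at least 1.5 times higher or lower. By this rule DANCR was the 1 member called higher, in a comparison that called 1.36% of all genes higher, and 0 members were called lower, where 5.91% of all genes were. At an adjusted p under 0.05 with no fold limit, 2 members were higher (DANCR and SNHG5), against 6.47% of all genes, and 1 was lower (ZFAS1), against 11.5%. In CPM, 2 members had all 3 CELF6-OE libraries above all 3 Control libraries, as did 17.9% of all genes, and 3 had them below, as did 20.0%. The rule used this contrast, so nothing is read from these counts.

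**Figure D1:**
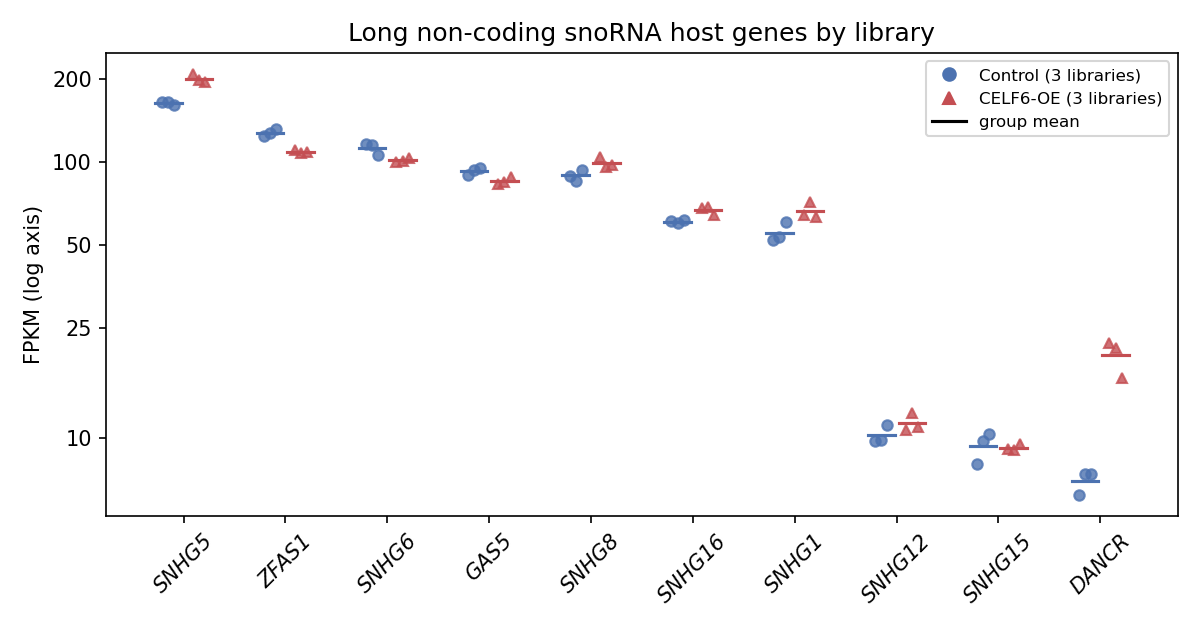
FPKM (log axis) of the 10 members in each of the 3 Control (circles) and 3 CELF6-OE (triangles) libraries, with a line at each group mean, ordered by the Control mean. DANCR is the only member whose group means, 7.03 and 19.97 FPKM, are more than a small step apart on this axis.

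By level per length, the members fell into an abundant and a scarce group. The Control means descended from SNHG5 (163.8 FPKM) over ZFAS1 (127.9), SNHG6 (112.6), GAS5 (92.7), SNHG8 (89.6), SNHG16 (60.9) and SNHG1 (55.5) to SNHG12 (10.3), SNHG15 (9.40) and DANCR (7.03), a span of 23.3-fold. The Control ranges of GAS5 and SNHG8 overlapped, as did those of SNHG16 and SNHG1 and those of SNHG12 and SNHG15, so those neighbours were not apart beyond their spread. DANCR was thus the least abundant member in Control and stood at rank 8 of 10 in CELF6-OE, above SNHG12 and SNHG15. The 9 other members together held 758.5, 751.0 and 742.0 FPKM in CELF6-OE and 715.5, 720.7 and 732.1 FPKM in Control. Of the summed FPKM of the 10 members, DANCR took 2.83%, 2.76% and 2.17% in CELF6-OE and 0.862%, 1.02% and 1.01% in Control. The coefficient of variation of a member within a group was 1.19% to 15.3% of its mean FPKM, and was highest for DANCR in CELF6-OE.

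The 5 genes whose pattern over the 6 libraries was closest to that of DANCR all had fewer counts than DANCR in every library and were no host genes of the lists used here. Likeness was the root mean square difference of log2 CPM, each centred on its own mean. It was 0.099 for FOXP4-AS1, an antisense RNA gene, with 42, 47 and 36 counts in the CELF6-OE libraries against 13, 17 and 18 in the Controls. RP11-498C9.15, AC083899.1, RP11-479G22.8 and SEPT1 followed at 0.12, 0.14, 0.14 and 0.16. Among the members, SNHG5 was nearest to DANCR at 0.62, which was rank 1562, and ZFAS1 was farthest at rank 12194.

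Outside the 10 members, 21 further long non-coding host genes were listed by name, of which 18 passed the filter on low counts. SNHG18, SNHG22 and MEG8 had too few counts. With edgeR's quasi-likelihood test, 5 of the 18 rose and 1 fell, where 1.36% of all genes rose and 5.91% fell. At an adjusted p under 0.05 without the fold limit, 10 rose and 2 fell, where 6.47% of all genes rose and 11.5% fell. Their median log2 fold change was 0.36, with a range of -1.31 to 0.98, against a median of 0.011 over all genes. All CELF6-OE libraries were above all Control libraries in 12 of the 18, as in 17.9% of all genes, and below them in 2, as in 20.0%. The list was written with the study's gene table known, and that table holds several of its genes, so the counts are not independent evidence of a direction.

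SNHG14, the long host transcript of the Prader-Willi region that runs antisense into UBE3A, had 662, 713 and 574 counts in the CELF6-OE libraries against 414, 332 and 296 in the Controls. Its log2 fold change was 0.98 (SE 0.12, edgeR adjusted p = 0.000315). UBE3A, on the opposite strand, had a log2 fold change of 0.34 (SE 0.11, edgeR adjusted p = 0.0584). Neither the strand setting nor the annotation of the counting is given in the sources used here. Reads of the part that overlaps in GENCODE v44 therefore cannot be assigned. SNHG14 also overlaps SNRPN on the same strand, which had 2790 to 3135 counts a library and a log2 fold change of 0.14 (SE 0.063). SNHG9, a short gene with no tested gene over it, had 326, 335 and 288 counts in the CELF6-OE libraries against 150, 185 and 202 in the Controls, for a log2 fold change of 0.89 (SE 0.13, edgeR adjusted p = 0.000839).

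SNHG21, the host of SCARNA15, had 225, 223 and 180 counts in the CELF6-OE libraries against 120, 147 and 140 in the Controls, for a log2 fold change of 0.70 (SE 0.13, edgeR adjusted p = 0.00502). SNHG10, the host of SCARNA13, had 218, 213 and 204 counts in the CELF6-OE libraries against 127, 143 and 159 in the Controls, for a log2 fold change of 0.64 (SE 0.13, edgeR adjusted p = 0.0058). In GENCODE v44, SNHG10 overlaps GLRX5 on the opposite strand, which had 3241 to 3668 counts a library and a log2 fold change of 0.17 (SE 0.060). Reads of that shared part cannot be assigned here either. Small Cajal body RNAs such as SCARNA15 and SCARNA13 guide modification of spliceosomal RNAs. Their own rows passed the filter and no change was detected, at 10 to 24 counts a library (edgeR adjusted p = 0.598 for SCARNA15 and 0.719 for SCARNA13).

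SNHG4, which lies in the MATR3 locus, had 102, 104 and 91 counts in the CELF6-OE libraries against 72, 61 and 67 in the Controls, for a log2 fold change of 0.64 (SE 0.15, edgeR adjusted p = 0.0148). It overlaps MATR3 on the same strand (log2 fold change 0.26, SE 0.14) and SIL1 on the opposite strand (-0.49, SE 0.070). Without Control replicate 2 it was not called, and neither was SNHG10 without Control replicate 1. The 1 host that fell was C1orf204, which carries the current symbol SNHG28. It had 11, 13 and 8 counts in the CELF6-OE libraries against 30, 28 and 26 in the Controls, for a log2 fold change of -1.31 (SE 0.28, edgeR adjusted p = 0.0091).

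The other hosts with the highest mean log2 CPM that were not called were LRRC75A-AS1, now SNHG29, and SNHG17. LRRC75A-AS1 had 244.19, 237.77 and 237.17 FPKM in CELF6-OE and 238.31, 241.55 and 235.08 FPKM in Control, and its groups overlapped (log2 fold change -0.021, SE 0.059). SNHG17 had 71.58, 76.44 and 66.05 FPKM in CELF6-OE and 52.65, 54.54 and 60.01 FPKM in Control, a log2 fold change of 0.32 (SE 0.081, edgeR adjusted p = 0.0193) that stayed under the fold limit. Called host genes thus included transcripts of far lower level than SNHG5 or ZFAS1, such as SNHG14 at 0.26 to 0.38 FPKM in Control.

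**Figure D2:**
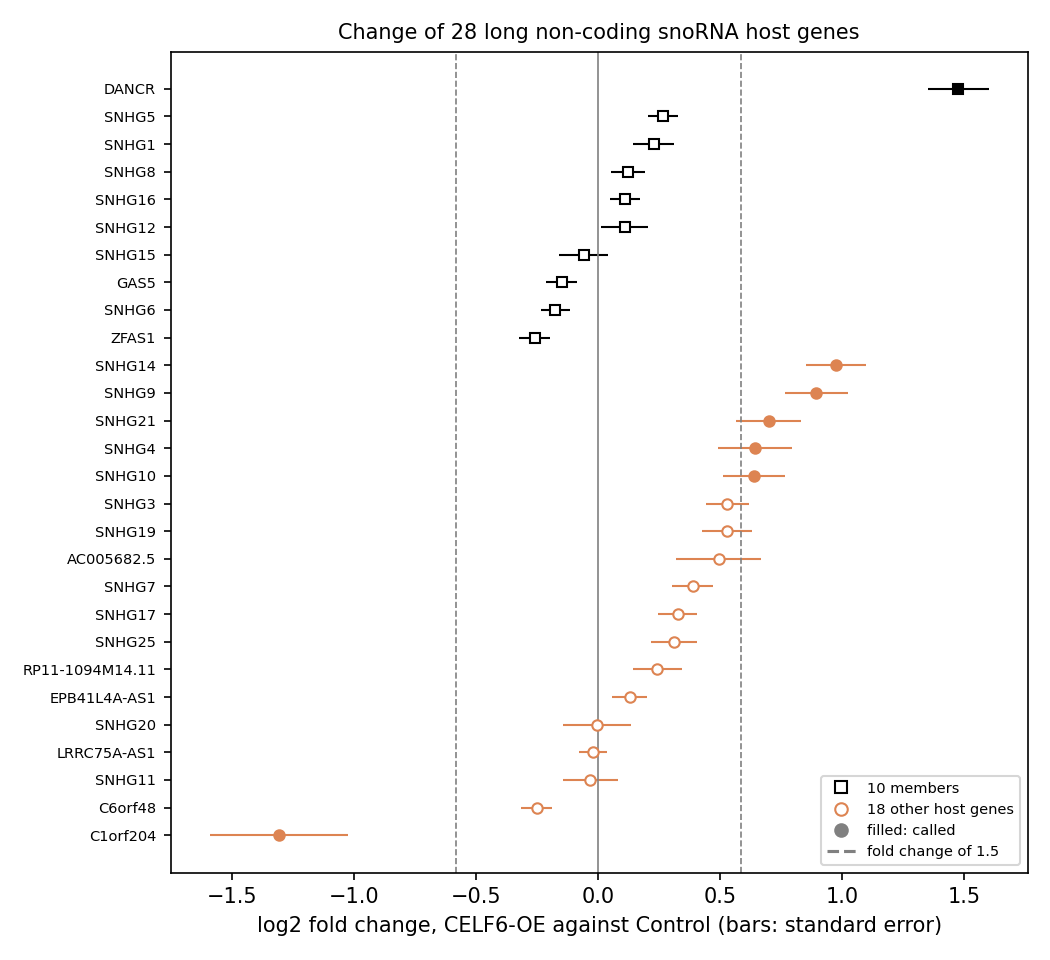
Log2 fold change (CELF6-OE against Control, edgeR) of the 10 members (squares) and the 18 other tested long non-coding host genes (circles), with bars of 1 standard error and dashed lines at a fold change of 1.5. Filled symbols were called, and DANCR at 1.47 lies to the right of all 27 others, of which SNHG14 at 0.98 is the nearest.

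Among genes that share the snoRNA pathway with the members, no protein-coding host and no snoRNP gene of the lists passed both the p and the fold limit. Of 52 protein-coding genes known to carry snoRNAs, most of them ribosomal or translation factor genes, 0 were called in either direction by edgeR, where 1.36% of all genes were called higher and 5.91% lower. At an adjusted p under 0.05, 11 were higher and 0 lower, where 6.47% of all genes were higher and 11.5% lower. Their median log2 fold change was 0.087, with a range of -0.12 to 0.37. RPS2 and RPL13A, ribosomal protein genes and the highest of this list by mean log2 CPM, had log2 fold changes of 0.071 (SE 0.093) and 0.019 (SE 0.076). Of 20 snoRNP protein and assembly genes, 0 were called and 19 had a log2 fold change above 0. The values ran from -0.014 to 0.26 with a median of 0.099, against a median of 0.011 over all genes tested. The share of all genes above 0 is not given here, so nothing is read from the count of 19. At an adjusted p under 0.05, NOP56, a C/D box core protein, and DKC1, the pseudouridine synthase of H/ACA particles, were higher, with log2 fold changes of 0.20 (SE 0.061, edgeR adjusted p = 0.0477) and 0.25 (SE 0.064, edgeR adjusted p = 0.0236). NOP56, DKC1 and NOP58 stand in both lists because they also carry snoRNAs. FBL, the methyltransferase of C/D box particles, had a log2 fold change of 0.16 (SE 0.071, edgeR adjusted p = 0.153).

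Of 19 genes of nonsense-mediated decay and the exon junction complex, which act on spliced host RNAs, 0 rose and 1 fell. Over all genes tested, 1.36% rose and 5.91% fell, so the 1 fall is near the share of all genes. The gene of the list that fell was XRN1, the exonuclease that degrades decapped RNA. It had 164, 195 and 228 counts in the CELF6-OE libraries against 373, 312 and 247 in the Controls. Its groups did not overlap in unscaled counts but came close. In FPKM they overlapped, with 0.60 in CELF6-OE replicate 3 above 0.58 in Control replicate 3. The log2 fold change of XRN1 was -0.59 (SE 0.17, edgeR adjusted p = 0.0313). The call was lost without CELF6-OE replicate 1 or 2 and without Control replicate 1 or 2, with an adjusted p of up to 0.130 over 16 alternatives. The genes of the list with the highest mean log2 CPM that were not called, both parts of the exon junction complex, were EIF4A3 (log2 fold change 0.016, SE 0.058) and RBM8A (0.23, SE 0.055, edgeR adjusted p = 0.0168). The median of the list was 0.12. At an adjusted p under 0.05 without the fold limit, 1 gene was higher (RBM8A) and 2 were lower (XRN1 and DCP1A). Over all genes tested, 6.47% were higher and 11.5% lower by that limit. DCP1A had a log2 fold change of -0.33 (SE 0.091, edgeR adjusted p = 0.0312).

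The neighbourhood of DANCR was described over the 5 nearest tested genes on each side. Of these 10 genes, 1 was called higher and 0 lower by edgeR, where 1.36% of all genes were called higher and 5.91% lower. The median log2 fold change of the 10 was 0.073. The gene that rose was ERVMER34-1, a gene derived from an endogenous retroviral envelope, which lies on the opposite strand and overlaps the far end of DANCR in GENCODE v44. It had 87, 97 and 85 counts in the CELF6-OE libraries against 47, 57 and 57 in the Controls, for a log2 fold change of 0.81 (SE 0.16, edgeR adjusted p = 0.00645). The library kit kept strand, but whether the counting used it is not given, and neither is the annotation that was counted. Whether the counted gene models share this stretch is thus not known. If they do, fragments of DANCR and of ERVMER34-1 in it cannot be told apart. USP46 and SCFD2, the nearest genes without that overlap apart from USP46-AS1, had log2 fold changes of 0.26 (SE 0.11) and 0.16 (SE 0.099). DCUN1D4, SGCB, SPATA18, USP46-AS1, FIP1L1, LNX1 and CHIC2 lay between -0.29 and 0.55, where LNX1 at 0.55 rests on 6 to 13 counts a library.

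**Figure D3:**
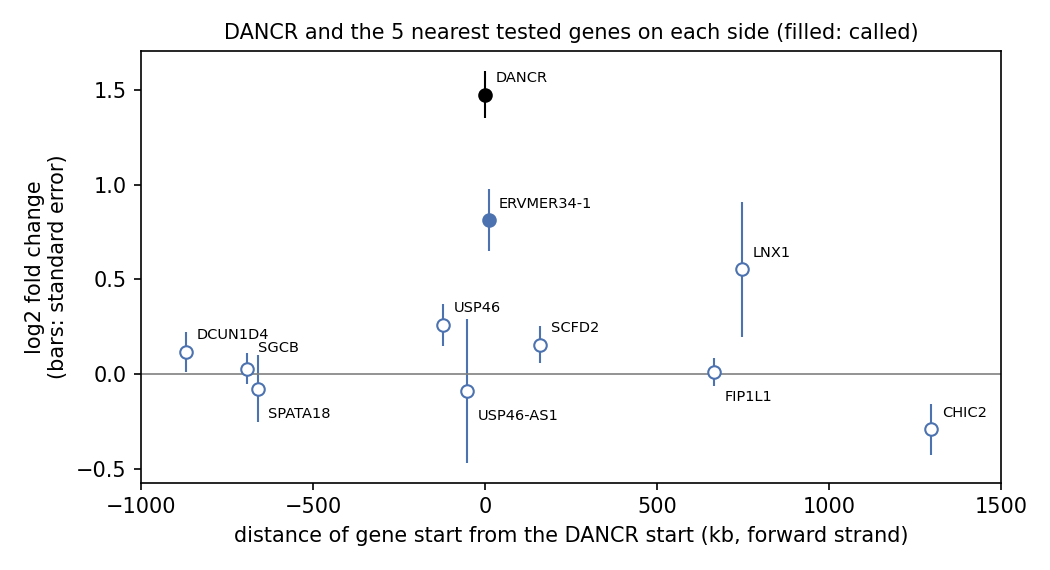
Log2 fold change (bars, 1 standard error) of DANCR and of the 5 nearest tested genes on each side, against the distance of their lowest coordinate from that of DANCR in kb on the forward strand. Filled symbols, DANCR at 1.47 and ERVMER34-1 at 0.81, were called, and the other 9 genes lie between -0.29 and 0.55.

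Other members also share ground with genes of the opposite strand. ZNFX1, an interferon-responsive helicase gene, begins head to head with ZFAS1 and fell, with 2995, 3117 and 3506 counts in the CELF6-OE libraries against 5667, 5855 and 5596 in the Controls (log2 fold change -0.76, SE 0.076, edgeR adjusted p = 7.25e-05). ZNFX1 was called in all 16 alternatives, and ZFAS1 at -0.26 was called in none of them under the same limits. GAS5-AS1 had 2 to 10 counts a library and was not tested. ZBTB37 over GAS5, TRNAU1AP over SNHG12, ST6GALNAC1 over SNHG16, MCMDC2 over SNHG6, PRSS12 over SNHG8 and RP11-321N4.5, on the same strand as SNHG5, were not called, with log2 fold changes of -0.42 to 0.35, and ST6GALNAC2 was not tested.

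The snoRNAs themselves are seen only in traces here, because poly(A) libraries capture few RNAs without a tail. The table holds 19 rows of small RNAs inside 8 of the members, all 19 of them in introns of the canonical GENCODE v44 transcripts. The SNORA26 snoRNA of DANCR and the SNORD50B snoRNA of SNHG5 are shown because they are the intronic products of the members with the highest log2 fold changes. Capitals mark the ACA box of SNORA26, 3 bases from its end, and the C and D boxes of SNORD50B.
SNORA26: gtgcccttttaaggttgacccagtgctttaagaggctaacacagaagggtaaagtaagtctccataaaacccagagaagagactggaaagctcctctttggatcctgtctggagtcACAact
SNORD50B: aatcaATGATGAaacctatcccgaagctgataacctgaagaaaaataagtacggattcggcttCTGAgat
SNORA26 lies in intron 2 of DANCR at chr4:52713249-52713370 (+) and SNORD50B in intron 2 of SNHG5 at chr6:85677589-85677658 (-), in GRCh38 coordinates of GENCODE v44. The SNORA26 row held 3, 3 and 3 counts in the CELF6-OE libraries against 2, 7 and 1 in the Controls, and MIR4449 held 0 or 1, so no difference was detectable at this depth for the small RNAs of DANCR. SNORD50B held 13, 18 and 11 counts in the CELF6-OE libraries against 11, 11 and 15 in the Controls. Of the 19 rows, 16 had 20 counts or fewer in every library and the highest single value was 54. By edgeR, 5 rows were tested (SNORD22 in SNHG1, SNORA61, SNORD50B, SNORD87 and SNORA24) and 0 were called. The summed counts of all 19 rows were 168, 193 and 153 in CELF6-OE and 109, 161 and 173 in Control, and the groups overlapped. Fragments counted here may also come from unspliced host RNA.

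CELF proteins bind GU-rich RNA, so the hexamers TGTGTG and TGTTGT were counted, on the transcript strand only and with overlapping matches allowed, in the canonical GENCODE v44 transcript of each member. The hexamers can share bases with each other. TGTGTG was present in 6 of the 10 members and in 33.5% of 18866 canonical lncRNA transcripts of all lengths, at 0.558 and 0.588 per kb of summed sequence. DANCR, with 3959 bases in 4 exons, had 0 copies. TGTTGT was present in 8 members and in 25.7% of lncRNA transcripts, at 0.718 and 0.30 per kb, and DANCR had 2 copies. SNHG8 had the most TGTTGT copies, 8 in 6166 bases, and ZFAS1 the most TGTGTG copies, 4 in 4526 bases. GAS5 and SNHG12 had 0 copies of TGTTGT. These counts describe one annotated transcript per gene and say nothing of binding in A549 cells.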

How the data were processed

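Polyadenylated RNA of 6 A549 libraries (3 CELF6-OE, 3 Control, grouped by their labels) was sequenced. The authors trimmed reads (FASTX-Toolkit), mapped them (TopHat2, GRCh38) and deposited whole-number counts of uniquely located reads per gene, without normalization. The authors also deposited FPKM values, per transcript length and mapped fragments. Which annotation release and strand setting were used, and with which counting tool, is not given in the sources used here. Of 29889 gene identifiers, 29032 were found in GENCODE v44.

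Counts were scaled by TMM and tested with edgeR 4.0.16 (R 4.3.3, glmQLFit and glmQLFTest) over the 15847 genes kept by filterByExpr (minimum count 10), with a prior count of 0.125 and Benjamini-Hochberg adjustment. Calls needed a p under 0.01 and a change of at least 1.5 times. Scripts were tested on simulated data. No libraries of a group were duplicates (chi-square per degree of freedom 7.67 to 29.3). The biological coefficient of variation was 8.62%.

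The members and gene lists were chosen with earlier results of these data known. Named are all members, CELF6, the called genes of each list and its 2 genes of highest mean log2 CPM not called, the genes beside DANCR or overlapping a member, and the 5 genes most like DANCR. SCARNA13, SCARNA15, UBE3A, SNRPN, GLRX5, MATR3, SIL1, GAS5-AS1 and single small RNAs were named after their values were seen, as overlaps or as small counts. So were NOP56, NOP58, DKC1, DCP1A, SNHG18, SNHG22 and MEG8. Alternatives were other scalings, filters and call rules, DESeq2 1.42.0, limma-voom and limma on log2(FPKM + 1) (limma 3.58.1, pseudocount 1), the replicate number as a block, removal of CELF6 counts, another prior count (2), and each library left out. Some genes looked up are not reported here.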

Additional observations from a re-analysis of the deposited data

How the results depend on the processing

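Over 17 alternatives the log2 fold change of DANCR lay between 1.37 and 1.59, and 0 of 170 member values moved by more than the spread between replicates. DANCR was the 1 member called higher, and 0 were called lower, under each alternative that kept the p and fold limits. SNHG15 turned sign in 1 alternative. Scalings moved the median of all genes to 0.049 at most. With an adjusted p under 0.05 in place of these limits, 1025 genes were higher and 1820 lower (216 and 936 by the reported rule), with 2 members higher and 1 lower, 10 and 2 other long non-coding hosts, 11 protein-coding hosts, 3 decay genes and 2 snoRNP genes. Limma on log2(FPKM + 1), where the pseudocount shrinks low genes, called 55 genes higher and 423 lower, 2 and 0 other long non-coding hosts, 0 decay genes and 0 genes beside DANCR. The minimum of 10 counts in every library left 0 other hosts lower, because C1orf204 was not tested. The call of XRN1 was lost (0 decay genes called) with library size only and with upper quartile scaling, and the cause was not tested. Without a filter 324 genes were higher and 1212 lower.

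Leaving out single libraries gave 155 to 348 genes higher (348 without Control replicate 1), 791 to 1041 lower, 4 to 7 other hosts higher and 0 to 1 decay genes. With the replicate block, 225 genes were higher and 963 lower, with 1 and 0 members and 5 and 1 other hosts. Libraries of the same number shared only that number, with correlations of their deviations of -0.011, -0.021 and -0.072. With 3 libraries a group and 20 counts or fewer in 16 of the 19 snoRNA and microRNA rows, only large differences in the small RNAs could have been seen.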
